A study of Sus scrofa with 12 samples.

Results

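Gene expression was compared between 2 labelled stages of porcine (Sus scrofa) aortic valve interstitial cells in culture, a fibroblast-like cell type that populates the valve leaflet and lays down its matrix. The comparison takes 6 of the 12 libraries of the series, namely 3 labelled Stage 1, grown for 5 days, and 3 labelled Stage 2, grown for 8 days. Both groups were grown on glass, which the labels name as the calcification stimulus, in DMEM medium, and neither received DMSO or KPT, which were given only to Stage 3 cultures. Not given in the sources used here are the breed, age and number of pigs, the passage of the cells and any genetic change, and the tissue field reads aorta although the cell type is a valve cell. The libraries are labelled biological replicates without a statement that they came from separate animals or isolations, so each p-value measures the spread between these cultures, which may be technical in part. The stage of a culture was set by when it was seen, and stage and day of growth cannot be told apart.

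In the healthy leaflet, valve interstitial cells are quiescent and secrete matrix, and in culture or disease they can turn into contractile myofibroblasts or take on features of bone-forming cells. They are steered by secreted factors that act on themselves and their neighbours: the TGF-beta and BMP families through serine/threonine kinase receptors, growth factors through receptor tyrosine kinases, Wnt proteins through frizzled and LRP receptors, and cytokines of the IL6 family through IL6ST. Transcription factors such as SOX9, the ID proteins, RUNX factors, AP-1 and C/EBP factors carry these signals to genes, and transporters and channels set the supply of amino acids, glucose, ions and lipids.

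The values are RPKM, reads scaled to exon length and library total, and means are given ± SD over the 3 libraries of a stage. Fold changes are Stage 2 over Stage 1, and log2 fold changes were taken after adding 1 to each RPKM, so that they are too small for genes of low level. The 6 libraries held 23287593 to 36726460 reads summed over genes. The library totals recovered from the RPKM were lower, at 13188023 to 20731206. The ratio of the sum to the total was 1.77 to 1.81, for a reason that is not known. All 14 valve interstitial cell markers found in the table, among them VIM, DCN and COL3A1, were at 1 RPKM or more in all 6 libraries, with a summed level of 52551 to 53211 RPKM at Stage 1 and 55077 to 57893 at Stage 2. Within this list 9 of 14 (64.3%) were called higher and 1 (7.14%) lower, against 16.3% and 24.4% over all tested genes. ACTA2 fell from 18443 ± 574 to 12677 ± 1251 RPKM, while COL3A1 rose from 3096 ± 215 to 6013 ± 264 RPKM. Of markers of other cell types, the endothelial list summed to 84.1 to 92.5 RPKM against 86.7 to 92.2. KDR and VWF of that list were at or near 0, but ERG stood at 47.9 ± 1.91 to 48.8 ± 2.24 RPKM. EGFL7 was at 22.4 ± 2.96 to 23.7 ± 1.24 RPKM, PECAM1 at 10 ± 0.482 to 10.9 ± 1.01 and TIE1 at 4.88 ± 0.471 to 3.48 ± 0.675. EGFL7, PECAM1 and TIE1 lie outside the naming rule and were chosen after their values were seen. Of the tested endothelial markers only ESAM was called, and it fell from 1.94 ± 0.208 to 0.868 ± 0.0507 RPKM. The leukocyte list summed to 248 to 287 RPKM against 281 to 308, nearly all of it CD79A, whose interval on chromosome 6 (46049093 to 46063418, build not given in the sources used here) overlaps that of the ribosomal protein gene RPS19 on the same strand (46055241 to 46063775), while PTPRC and CD53 were at or near 0; CD14 of this list rose from 5.99 ± 0.553 to 11.3 ± 0.672 RPKM and CD68 fell from 4.51 ± 0.968 to 1.59 ± 0.477 RPKM; ESAM and CD68 lie outside the naming rule and were chosen after their values were seen. The neural and glial list, nearly all of it the tubulin TUBB3, summed to 139.5 to 147.1 RPKM at Stage 1 and 85.1 to 108.5 at Stage 2, without overlap, and TUBB3 fell from 142 ± 4.39 to 96.6 ± 11.6 RPKM; the part of this in any gene below was not tested. The share of reads from mitochondrial genes was 2.37% ± 0.116 at Stage 1 and 1.72% ± 0.256 at Stage 2 (exact two-sided permutation p = 0.1, the smallest that 3 against 3 allow), and the part of this shift in any gene below was not tested. Stage 2 replicate 1 stood apart on the second principal component (13.7% of the variance, at 24.19 against -10.12 and -13.12 for replicates 2 and 3), and counts that change by more than 1.5 times without it are given below with their value.

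Of 13046 genes tested with limma, 5308 (40.7%) were called at a Benjamini-Hochberg adjusted p under 0.05, 2127 (16.3%) higher and 3181 (24.4%) lower at Stage 2. The median log2 fold change over all tested genes was -0.05. Only a small share passed with a change of at least 2-fold on the log2(RPKM + 1) scale, 247 genes (1.89%) upward and 311 (2.38%) downward. The 3 libraries of Stage 1 and the 3 of Stage 2 did not overlap for 6846 tested genes (52.5%), a share against which the non-overlap of single genes below is to be read. Most genes named below were chosen for being called and without overlap, so their non-overlap is no further support. Along the first principal component, with 67% of the variance over the 6 libraries, the 2 stages lay on opposite sides. Bulk RNA does not tell fewer cells of a kind from less RNA per cell, and this holds for every difference below.

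**Figure D1:**
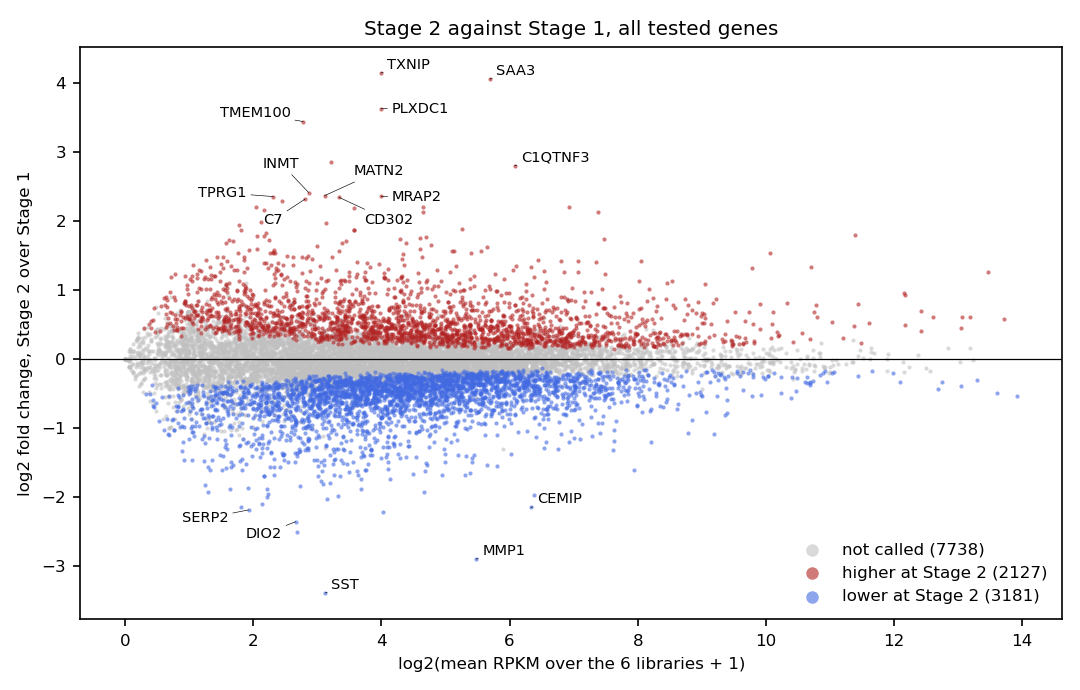
Each point is one of the 13046 tested genes, with the log2 of its mean RPKM over the 6 libraries (plus 1) on the horizontal axis and its log2 fold change, Stage 2 over Stage 1, on the vertical axis; red and blue mark the 2127 higher and 3181 lower genes called by limma. Named genes are the protein-coding ones among the 12 largest rises and falls, except TNFSF10, whose identity is uncertain, with TXNIP (4.15) at the top and SST (-3.40) at the bottom.

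The largest rise on the log2(RPKM + 1) scale was that of TXNIP, an alpha-arrestin that binds thioredoxin and restrains glucose uptake. It was measured at 0.527, 0.756 and 0.638 RPKM at Stage 1 and 18.8, 30.6 and 38.2 at Stage 2. The groups did not overlap, and the log2 fold change was 4.15 (SE 0.44, adjusted p = 1.9e-05). TMEM100, a membrane protein downstream of BMP9 and ALK1 signalling in endothelial cells, was almost absent at Stage 1, with 0.0529, 0.318 and 0 RPKM at Stage 1 and 7.2, 12.6 and 15.1 at Stage 2. Only 10 reads in all lay behind its Stage 1 values, against 934 at Stage 2, and by the ratio of means its rise (93.9-fold) was larger than that of TXNIP (45.6-fold). Its log2 fold change was 3.44 (SE 0.34, adjusted p = 1.33e-05). MRAP2, an accessory protein of melanocortin and other G-protein-coupled receptors, rose from 4.18 ± 0.327 to 25.8 ± 4.64 RPKM, and CD302, a C-type lectin receptor, rose from 2.35 ± 0.847 to 15.9 ± 3.85 RPKM. INMT, an amine N-methyltransferase, rose from 1.34 ± 0.883 to 11.2 ± 3.18 RPKM. A gene of uncertain identity, TNFSF10 by the deposited table but GHSR by its ID, rose from 1.15 ± 0.0842 to 15.3 ± 5.26 RPKM.

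Among the falls the largest on the same scale was in SST, the peptide hormone somatostatin. SST was measured at 17, 13.6 and 14.1 RPKM at Stage 1 and 0.446, 0.335 and 0.744 at Stage 2. Every Stage 1 library was at least 13.6 RPKM and every Stage 2 library below 1, and the log2 fold change was -3.40 (SE 0.20, adjusted p = 3.8e-07). DIO2, which converts the prohormone thyroxine to active thyroid hormone, was at 8.4, 10.5 and 9.81 RPKM at Stage 1 and 0.653, 1.12 and 1.45 at Stage 2. No Stage 2 library came near the Stage 1 range, and the log2 fold change was -2.36 (SE 0.30, adjusted p = 6.92e-05). CEMIP, which binds and depolymerises hyaluronan, fell from 130.4 ± 7.65 to 28.7 ± 5.24 RPKM, and at Stage 3 with DMSO it stood at 69.6 ± 1.25 RPKM, a value given without a test. Of the 12 largest falls, 7 were genes of small nucleolar RNAs, such as SNORD93 (38 reads in all at Stage 1) and SNORD30 (22 reads).

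Called members of the lists of secreted factors, receptors, transcription factors and transporters were spread unevenly around these background shares of 16.3% higher and 24.4% lower. The list of CTRP, angiopoietin-like and other secreted adaptors had 27 of 36 tested members higher, and complement and acute-phase proteins had 10 of 18 higher and 0 lower. In the opposite direction, AP-1, EGR, KLF and NR4A factors had 18 of 47 lower and 4 higher, and hormones, neuropeptides and vasoactive peptides had 7 of 14 lower. Solute carriers were divided, with 40 higher (22.7%) and 36 lower (20.5%) of 176. These are counts, and no list was tested as a set. Every list count below is to be read against these shares. The share called either way was near the 40.7% of all tested genes for cytokine and TNF-type receptors (42.5%) and guidance and Notch receptors (42.1%). The same held for solute carriers (43.2%) and ion channels (38.2%).

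**Figure D2:**
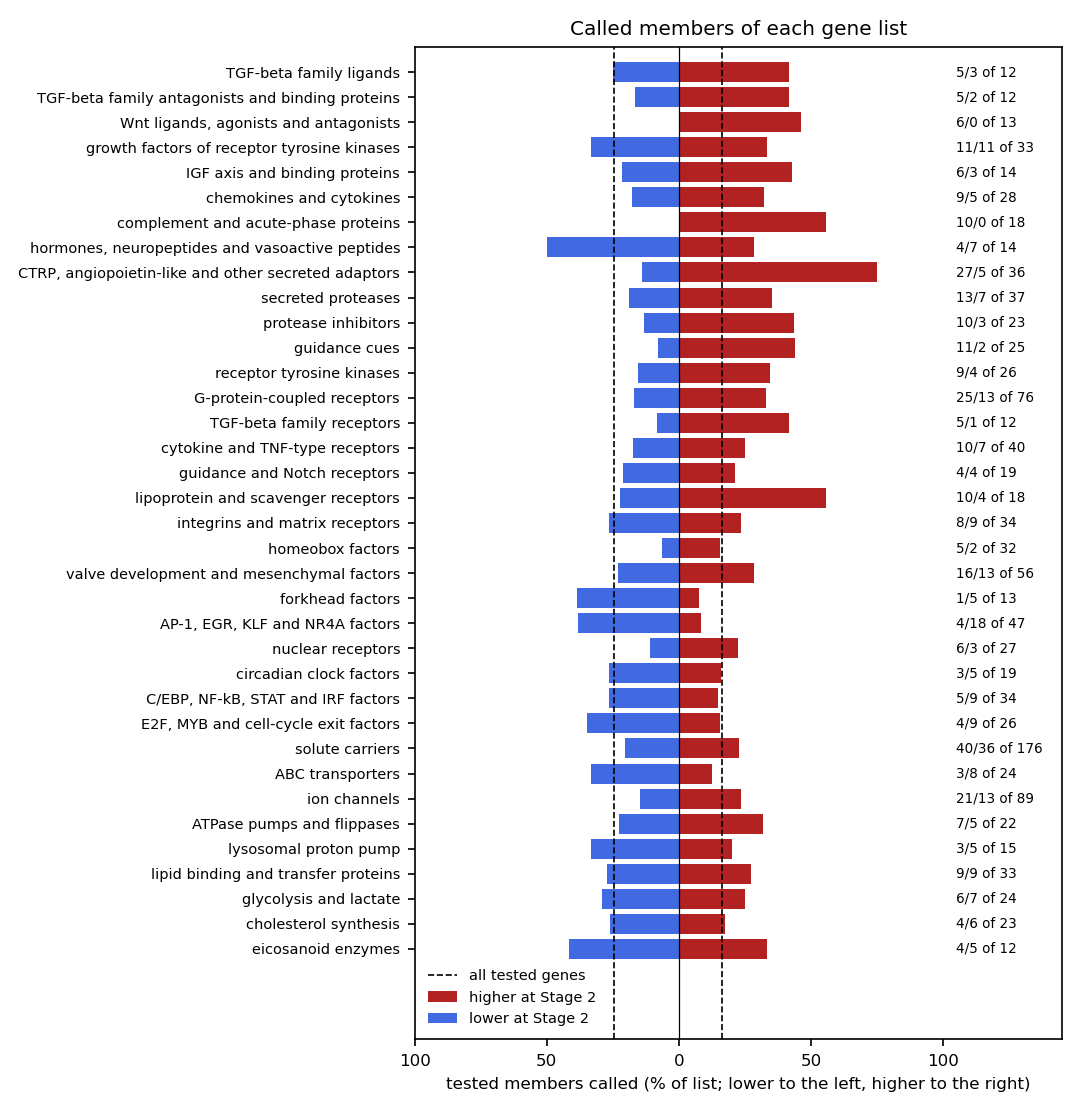
Bars give, for each gene list, the percent of its tested members called lower (blue, to the left) or higher (red, to the right) at Stage 2, with the counts higher/lower of tested at the right; dashed lines mark the shares over all tested genes, 24.4% lower and 16.3% higher. The bar of the CTRP and adaptor list reaches farthest to the right (27 of 36) and that of hormones and peptides farthest to the left (7 of 14).

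Complement and acute-phase genes rose in 10 of 18 tested members, with none called lower and a median log2 fold change of 0.50. SAA3, a serum amyloid A of the acute-phase response, was measured at 4.94, 6.01 and 3.54 RPKM at Stage 1 and 78.8, 87.4 and 124 at Stage 2. The lowest Stage 2 library was far above the highest of Stage 1, with a log2 fold change of 4.06 (SE 0.25, adjusted p = 5.06e-07). SAA2, a close copy whose reads may be shared with SAA3, rose from 0.53 ± 0.291 to 6.47 ± 3.61 RPKM. C7, a component of the membrane attack complex, stood at 1.35, 1.42 and 1.23 RPKM at Stage 1 and 9.96, 9.91 and 12.2 at Stage 2, again without overlap. CLU, a chaperone that also blocks the terminal complex, rose from 942 ± 30.5 to 2378 ± 174 RPKM. The counts of this list without Stage 2 replicate 1 were also 10 higher and 0 lower.

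The secreted adaptor list, which holds C1q/TNF-related proteins, angiopoietin-like proteins, matrilins, olfactomedins and CCN proteins, had 27 members higher and 5 lower, with a median log2 fold change of 0.62. C1QTNF3, an adiponectin paralogue also called cartducin, was at 15.8, 15.5 and 16.3 RPKM at Stage 1 and 102, 126 and 124 at Stage 2. The replicates of each stage lay close together and the stages were far apart, with a log2 fold change of 2.80 (SE 0.09, adjusted p = 4.08e-09). MATN2, a filament-forming matrix adaptor, rose from 1.75 ± 0.454 to 13.6 ± 4.38 RPKM. SPARCL1, an anti-adhesive relative of SPARC, rose from 7.91 ± 0.412 to 40.4 ± 6.13 RPKM, and OLFML2B, an olfactomedin-domain protein, rose from 42.5 ± 4.8 to 200.3 ± 31.6 RPKM. Members called lower included CYR61, a CCN protein and a target of YAP, which fell from 1037 ± 23.5 to 719 ± 87.3 RPKM and OLFML3 from 295 ± 1.07 to 243 ± 13.1 RPKM. CTGF, another CCN protein, was called lower at 2028 ± 44.9 to 1756 ± 127 RPKM, but the call was lost after rescaling by the median ratio (adjusted p = 0.0886, with 0.00297 to 0.0886 over the alternatives). Called falls of the list went from 5 to 3 with that rescaling, and also without Stage 1 replicate 2 or without Stage 2 replicate 3.

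**Figure D3:**
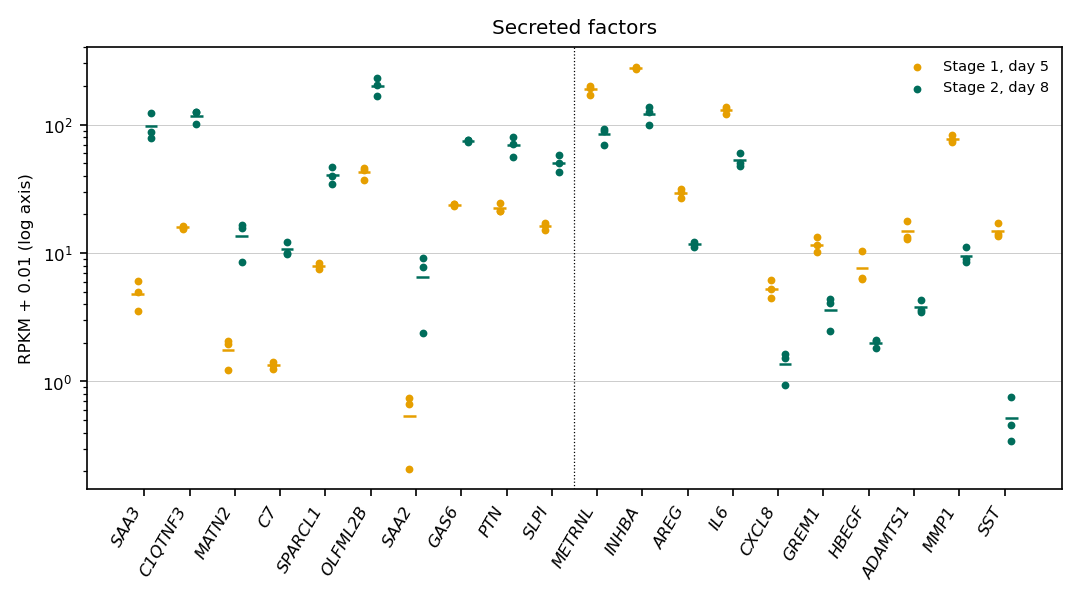
RPKM of secreted factors in each of the 3 Stage 1 libraries (orange) and 3 Stage 2 libraries (green) on a log axis, with 0.01 added for display and a short line at each mean; genes higher at Stage 2 are left of the dotted line and genes lower at Stage 2 right of it. The libraries of the 2 stages do not overlap for any gene drawn, as the rule that chose them required, from SAA3 (4.83 to 96.7 RPKM on average) to SST (14.9 to 0.508).

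Ligands of receptor tyrosine kinases were divided, with 11 higher and 11 lower of 33 tested. GAS6, the vitamin K-dependent ligand of the TAM receptors TYRO3, AXL and MERTK, was at 23.1, 24 and 24 RPKM at Stage 1 and 75.5, 73.4 and 75.4 at Stage 2. All 3 Stage 2 libraries were above all 3 of Stage 1, with a log2 fold change of 1.62 (SE 0.09, adjusted p = 3.73e-07). Its receptor TYRO3 rose from 31.9 ± 1.03 to 76.1 ± 6.94 RPKM, whereas AXL was called lower at 189 ± 8.25 to 158 ± 15.7 RPKM, a call lost under 5 alternatives, rescaling by the median ratio among them (adjusted p = 0.0676, with 0.000119 to 0.088 over the alternatives). The heparin-binding factor PTN rose from 22.5 ± 1.97 to 69.1 ± 12 RPKM. HGF rose from 5.79 ± 0.926 to 13.9 ± 2.19 RPKM while its receptor MET was lower under both of its IDs, at 8.37 ± 0.408 to 5.08 ± 0.385 RPKM for the ID used in the lists, whose reads may be divided between the pair. PDGFD, a ligand of PDGFRB, rose from 8.09 ± 1.13 to 17.5 ± 2.66 RPKM.

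Among the falls were ligands of the EGF receptor. HBEGF was measured at 6.35, 10.3 and 6.24 RPKM at Stage 1 and 1.82, 2.05 and 2.1 at Stage 2, and AREG, amphiregulin, at 29.9, 31.6 and 26.9 RPKM at Stage 1 and 12.1, 11.2 and 11.8 at Stage 2. Neither overlapped between stages, with log2 fold changes of -1.50 (SE 0.21, adjusted p = 0.000167) and -1.26 (SE 0.23, adjusted p = 0.00103). VEGFA, the main angiogenic factor, fell from 592 ± 59.8 to 323 ± 52.2 RPKM, and NRP1, a co-receptor of VEGF and of class 3 semaphorins, fell from 6.68 ± 0.283 to 3.33 ± 0.361 RPKM. KIT, the stem cell factor receptor, was lower in every Stage 2 library, at 122, 122 and 123 RPKM at Stage 1 and 60.5, 61.3 and 59.9 at Stage 2. FGF7, the most abundant growth factor of the list by its mean over both stages, was at 443 ± 48.7 to 515 ± 100.1 RPKM and was not called. Among receptor tyrosine kinases as a list, 9 were higher and 4 lower of 26. The ephrin receptor EPHB3 rose from 15.3 ± 1.07 to 35 ± 0.566 RPKM, and both collagen-binding discoidin receptors were higher, DDR1 from 22.9 ± 0.162 to 46.1 ± 2.78 RPKM and DDR2 from 53.9 ± 2.54 to 73.9 ± 3.1 RPKM.

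The IGF axis had 6 of 14 tested members higher and 3 lower, the latter 1 with a minimum RPKM of 5. IGF1, the ligand, was at 51.9, 46.9 and 49.9 RPKM at Stage 1 and 96.7, 118 and 132 at Stage 2. The stages did not overlap, with a log2 fold change of 1.19 (SE 0.13, adjusted p = 1.95e-05). PAPPA, the protease that frees IGF by cutting binding proteins, rose from 2.79 ± 0.419 to 9.65 ± 1.3 RPKM. Its substrate IGFBP5 rose from 88.6 ± 10.8 to 236 ± 26.7 RPKM, and IGFBP7, a low-affinity relative, rose from 2026 ± 47.3 to 3524 ± 99.9 RPKM. STC2, a secreted inhibitor of PAPPA, fell from 32.3 ± 0.365 to 15.5 ± 1.68 RPKM. The growth hormone receptor GHR, which controls IGF1 in many tissues, rose from 2.45 ± 0.665 to 6.69 ± 1.42 RPKM.

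Members of the TGF-beta family moved in both directions, with 5 higher and 3 lower of 12 in the ligand list. That list also holds BMP1, a protease rather than a ligand of the family. BMP1 was among the 5 called higher, at 114 ± 1.01 to 130 ± 1.55 RPKM, and its call was lost under 7 alternatives. TGFB1 was measured at 43.4, 50.8 and 45.3 RPKM at Stage 1 and 74.3, 82.7 and 79.1 at Stage 2, and INHBA, the activin A subunit, at 274, 271 and 281 RPKM at Stage 1 and 137, 126 and 99.9 at Stage 2. TGFB1 was higher and INHBA lower in every Stage 2 library, with log2 fold changes of 0.75 (SE 0.15, adjusted p = 0.00192) and -1.19 (SE 0.10, adjusted p = 4.67e-06). TGFB3 fell from 167 ± 4.37 to 101 ± 3.41 RPKM and TGFB2 from 42.7 ± 2.62 to 31.7 ± 2.09 RPKM, so the 3 isoforms did not share a direction. BMP6 rose from 155 ± 6.54 to 224 ± 4.89 RPKM. GREM1, a secreted BMP antagonist, fell from 11.6 ± 1.55 to 3.62 ± 1.03 RPKM, and LTBP3, which anchors latent TGF-beta in the matrix, rose from 45.9 ± 3.19 to 71.2 ± 6.07 RPKM. Antagonists and binding proteins had 5 higher of 12, a count that was 3 without Stage 2 replicate 1, without any 1 of the 3 Stage 1 libraries, or with limma-voom on reads recovered from the RPKM.

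On the receptor side, 5 of 12 were higher and 1 lower. The co-receptor betaglycan, TGFBR3, was at 2.5, 2.31 and 2.72 RPKM at Stage 1 and 6.22, 7.36 and 7.54 at Stage 2. It was higher in every Stage 2 library, with a log2 fold change of 1.19 (SE 0.11, adjusted p = 5.86e-06). TGFBR2, the ligand-binding TGF-beta receptor, rose from 55.7 ± 3.58 to 90.7 ± 3.49 RPKM, ACVRL1 (ALK1), a type I receptor for BMP9 and BMP10, from 3.48 ± 0.353 to 6.91 ± 0.343 RPKM, and ACVR2A, an activin type II receptor, from 7.58 ± 0.876 to 13 ± 2.76 RPKM. BMPR1B, a type I BMP receptor, fell from 7.15 ± 0.375 to 3.45 ± 0.252 RPKM. ID1, an inhibitor of DNA binding and a direct BMP target gene, was at 114, 90.5 and 116 RPKM at Stage 1 and 245, 253 and 253 at Stage 2. It was higher in all Stage 2 libraries, with a log2 fold change of 1.23 (SE 0.09, adjusted p = 1.38e-06), and at Stage 3 with DMSO it was 136 ± 6.31 RPKM, which was not tested here.

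In the Wnt list 6 of 13 tested members were higher and none was lower, with a median log2 fold change of 0.33. With a minimum RPKM of 5 the list had 3 higher. Those named include both antagonists and an agonist. SFRP1, a decoy that binds Wnt proteins, was at 317, 327 and 332 RPKM at Stage 1 and 525, 579 and 569 at Stage 2. The groups were apart, with a log2 fold change of 0.78 (SE 0.07, adjusted p = 5.86e-06). RSPO3, an R-spondin that stabilises frizzled receptors, rose from 5.84 ± 0.213 to 10.1 ± 2.72 RPKM, and DKK3, a Dickkopf relative, rose from 652 ± 7.21 to 822 ± 27.4 RPKM. SFRP2 was at 859 ± 2.47 to 821 ± 26.7 RPKM and was not called. The co-receptor LRP6 rose from 16.9 ± 0.491 to 25.7 ± 2.16 RPKM and FZD4, a frizzled receptor, fell from 29.5 ± 0.62 to 16.5 ± 0.809 RPKM.

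Chemokines and cytokines had 9 higher and 5 lower of 28; the lower count was 3 without Stage 1 replicate 2 or Stage 2 replicate 3. IL6, which drives the acute-phase response, was measured at 138, 132 and 120.1 RPKM at Stage 1 and 60.6, 47.8 and 50.2 at Stage 2. It was lower in all Stage 2 libraries, with a log2 fold change of -1.29 (SE 0.15, adjusted p = 3.47e-05), while the acute-phase genes SAA3 and SAA2 were higher. CXCL8, a neutrophil chemokine, fell from 5.29 ± 0.873 to 1.36 ± 0.381 RPKM, and CLCF1, a cytokine of the IL6 family, from 35.6 ± 3.02 to 15.8 ± 1.22 RPKM. The shared receptor of this family, IL6ST, rose from 110.3 ± 2.01 to 159 ± 22.4 RPKM. Higher were CX3CL1, a membrane-bound chemokine, from 1.87 ± 0.146 to 6.55 ± 0.728 RPKM, IL18 from 3.22 ± 1.17 to 7.48 ± 0.212 RPKM and IL34, a ligand of the CSF1 receptor, from 9.65 ± 0.86 to 17.2 ± 1.61 RPKM. CCL2, a monocyte chemokine and the most abundant of the list, stood at 1477 ± 98.9 to 1482 ± 113 RPKM and was not called.

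Hormones, neuropeptides and vasoactive peptides had 4 higher and 7 lower of 14, with a median log2 fold change of -0.35. Besides SST, METRNL, a secreted meteorin-like factor, was at 171, 193 and 199.9 RPKM at Stage 1 and 92.8, 89.4 and 69.6 at Stage 2. The stages did not overlap, with a log2 fold change of -1.16 (SE 0.12, adjusted p = 1.93e-05). ADM, the vasodilator adrenomedullin, fell from 37.6 ± 3.95 to 20.9 ± 4.51 RPKM. EDN1, the vasoconstrictor endothelin 1, was called lower at 36.7 ± 2.98 to 23.3 ± 0.0776 RPKM, but not without Stage 1 replicate 2 (adjusted p = 0.0502) or replicate 3 (0.0522), the lowest over the alternatives being 0.000696. PTHLH, the parathyroid hormone-like peptide of cartilage and bone, rose from 3.46 ± 0.306 to 6.92 ± 0.949 RPKM, and the calcium-binding nucleobindin NUCB1 from 238 ± 2.56 to 356 ± 23.2 RPKM.

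Eicosanoid enzymes, which make prostaglandins and leukotrienes, had 4 higher and 5 lower of 12; the lower count was 3 after median-ratio rescaling, 3 without Stage 1 replicate 2 or 3, and 2 without Stage 2 replicate 2. PTGS2, the inducible cyclooxygenase, was at 257, 326 and 252 RPKM at Stage 1 and 104, 113 and 111 at Stage 2. It was lower in all Stage 2 libraries, with a log2 fold change of -1.33 (SE 0.09, adjusted p = 1.34e-06). Downstream of it, PTGIS, prostacyclin synthase, rose from 56.1 ± 3.52 to 87.6 ± 2.62 RPKM and PTGES, prostaglandin E synthase, rose from 66.8 ± 5.78 to 90.4 ± 4.21 RPKM. On the leukotriene side LTC4S rose from 12.1 ± 0.528 to 20.6 ± 3.06 RPKM and ALOX5AP, which presents arachidonic acid to 5-lipoxygenase, from 9.48 ± 0.38 to 14.6 ± 0.693 RPKM.

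Secreted proteases had 13 higher and 7 lower of 37, and protease inhibitors 10 higher and 3 lower of 23. MMP1, interstitial collagenase, was at 73.7, 76.1 and 83 RPKM at Stage 1 and 11.1, 8.5 and 8.95 at Stage 2. Its libraries did not overlap, with a log2 fold change of -2.91 (SE 0.13, adjusted p = 9.52e-08), while MMP2, gelatinase A, rose from 940.2 ± 29.9 to 1643 ± 35.4 RPKM and HTRA1, a serine protease, from 1291 ± 11.4 to 2229 ± 73.2 RPKM. ADAMTS1, an aggrecan- and versican-cutting protease listed under 2 IDs, fell from 14.7 ± 2.67 to 3.79 ± 0.444 RPKM for the ID with more signal. SLPI, an inhibitor of leukocyte elastase, rose from 16.2 ± 0.987 to 50.3 ± 8 RPKM, TFPI2, a Kunitz inhibitor, from 81.9 ± 4.55 to 167 ± 11.1 RPKM, and TIMP3, the matrix-bound metalloproteinase inhibitor, from 95.7 ± 10.5 to 189 ± 14 RPKM. TIMP1 was far more abundant, at 2898 ± 130.4 to 2930.5 ± 141 RPKM, and was not called.

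Guidance cues had 11 of 25 tested members higher (44%) and 2 lower (8%). Their receptors, taken with Notch receptors, had 4 higher and 4 lower of 19 (21.1% each), against 16.3% and 24.4% over all tested genes. PLXDC1, a plexin-domain receptor first described in tumour endothelium, was the largest receptor rise, at 1.5, 1.32 and 1.22 RPKM at Stage 1 and 21.8, 30.6 and 33.1 at Stage 2. The libraries were far apart, with a log2 fold change of 3.63 (SE 0.17, adjusted p = 1.23e-07), and Stage 3 with DMSO stood at 114 ± 25.6 RPKM, given without a test. NOTCH3, the Notch receptor of mural cells, was at 4.81, 3.99 and 3.6 RPKM at Stage 1 and 16.3, 16.6 and 14.5 at Stage 2 under the ID with more signal and was also called higher under its other ID. The smooth muscle and pericyte marker list, which holds NOTCH3, summed to 1203 to 1254 RPKM at Stage 1 and 1120 to 1410 at Stage 2, and its part in this rise was not tested. EFNA1, a ligand of EPHA receptors, rose from 13.1 ± 1.63 to 25.9 ± 1.02 RPKM, and the secreted semaphorin SEMA3F rose from 9.45 ± 0.429 to 15.9 ± 1.54 RPKM. The plexins PLXNA2 and PLXNA3, semaphorin co-receptors, fell from 55.1 ± 2.7 to 35 ± 2.82 RPKM and from 53.9 ± 1.95 to 38.1 ± 2.87 RPKM, the former with 2 IDs.

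G-protein-coupled receptors had 25 higher and 13 lower of 76, with 8 lower without Stage 1 replicate 2. GABBR2, a subunit of the GABA-B receptor, was measured at 18.8, 19 and 18.6 RPKM at Stage 1 and 5.58, 4.74 and 4.54 at Stage 2. It was lower in every Stage 2 library, with a log2 fold change of -1.74 (SE 0.13, adjusted p = 1.78e-06). S1PR2, a sphingosine 1-phosphate receptor, fell from 38.6 ± 2.7 to 16.1 ± 1.41 RPKM, and ADGRG6, an adhesion receptor that binds collagen IV, fell from 20.3 ± 0.91 to 9.19 ± 0.875 RPKM. The histamine receptor HRH1 was at 2.67, 2.18 and 2.46 RPKM at Stage 1 and 7.03, 8.41 and 7.99 at Stage 2, higher in every Stage 2 library, with a log2 fold change of 1.36 (SE 0.15, adjusted p = 2.64e-05). GPR1, a receptor for the adipokine chemerin, rose from 3.03 ± 1.02 to 7.51 ± 0.4 RPKM, and the orphan receptor GPR153 from 4.63 ± 0.756 to 11.4 ± 0.793 RPKM.

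Cytokine and TNF-type receptors had 10 higher (25%) and 7 lower (17.5%) of 40, against 16.3% and 24.4% over all tested genes. In all 42.5% of them were called, near the 40.7% of all tested genes. TNFRSF12A, the receptor of TWEAK, was at 563, 622 and 594 RPKM at Stage 1 and 319.7, 277 and 252 at Stage 2. No Stage 2 library reached the Stage 1 range, with a log2 fold change of -1.07 (SE 0.11, adjusted p = 1.19e-05). IL4R fell from 77.9 ± 5.18 to 44.4 ± 3.39 RPKM and IL17RA from 57.6 ± 3.09 to 34.3 ± 2.47 RPKM. TNFRSF11B, osteoprotegerin, the decoy receptor of RANKL, rose from 54.2 ± 3.9 to 90.6 ± 9.49 RPKM, and CD40 rose from 18.1 ± 1.54 to 30.7 ± 0.978 RPKM. Lipoprotein and scavenger receptors had 10 higher (55.6%) and 4 lower (22.2%) of 18. The lysosomal receptor SCARB2 rose from 90.4 ± 2.86 to 144 ± 13 RPKM, whereas VLDLR, a receptor for triglyceride-rich lipoproteins, fell from 308 ± 9.17 to 223 ± 4.97 RPKM. Among 34 integrins and matrix receptors 8 were higher (23.5%) and 9 lower (26.5%). The collagen-binding alpha subunits ITGA11, ITGA10 and ITGA1 rose from 42.1 ± 1.12 to 82.9 ± 3.1 RPKM, from 8.66 ± 0.375 to 14.5 ± 1.04 RPKM and from 16.5 ± 0.876 to 24.2 ± 1.68 RPKM, and their shared partner ITGB1 fell from 1842 ± 38.9 to 1458 ± 65.1 RPKM.

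**Figure D4:**
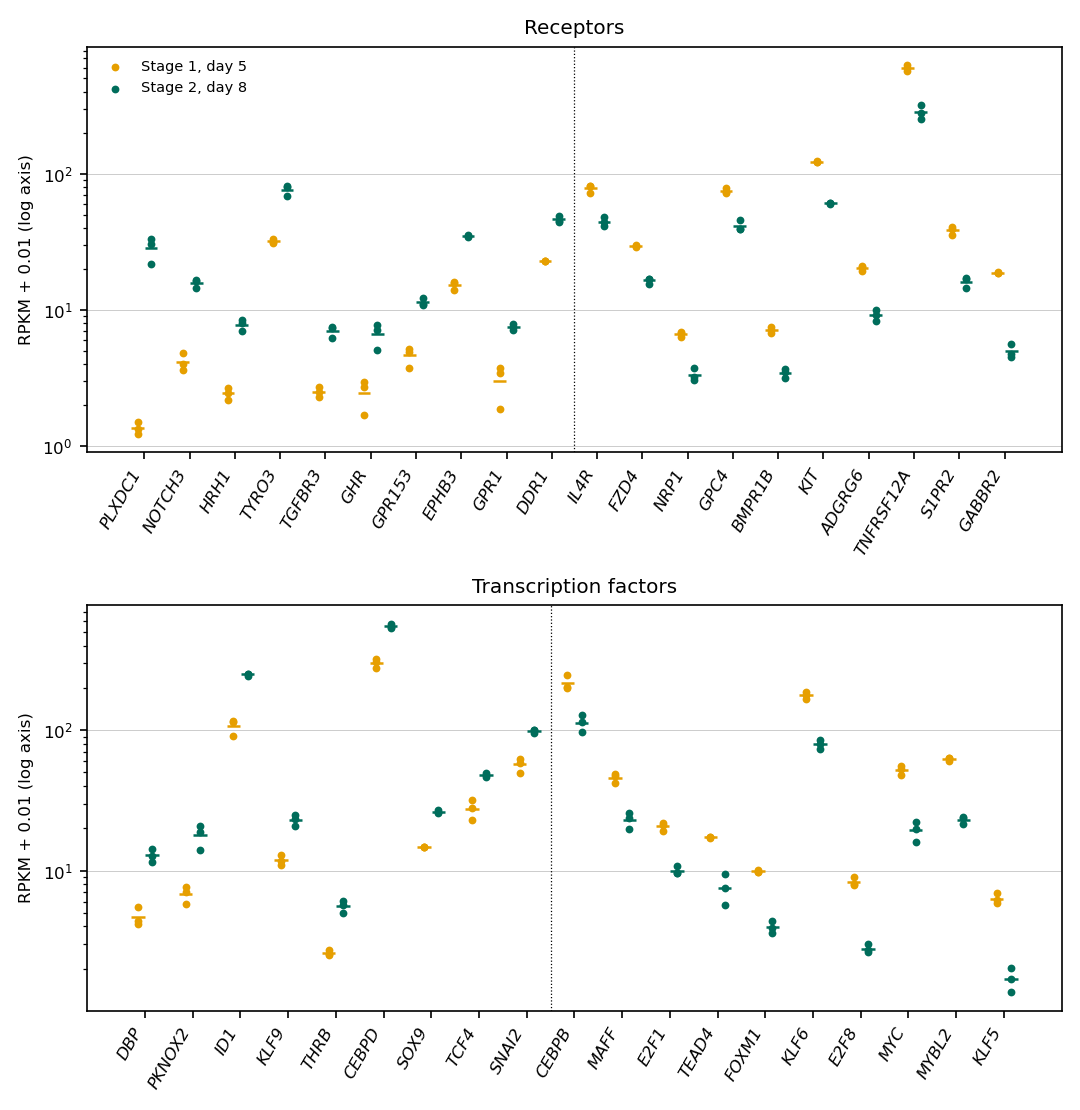
RPKM of receptors and transcription factors in each of the 3 Stage 1 libraries (orange) and 3 Stage 2 libraries (green) on a log axis, with 0.01 added for display and a short line at each mean; genes higher at Stage 2 are left of the dotted line in each panel and genes lower right of it. PLXDC1 shows the widest gap among the receptors (1.35 to 28.5 RPKM on average), wider than that of any transcription factor drawn.

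Among transcription factors the largest named change was that of KLF5, which fell by 1.45 on the log2 scale. Factors of valve development and mesenchyme had 16 higher and 13 lower of 56, with a median log2 fold change near 0. SOX9, the chondrogenic factor needed for valve matrix, was at 14.7, 14.8 and 14.7 RPKM at Stage 1 and 25.8, 26.8 and 26.2 at Stage 2, and SNAI2, a factor of endothelial-to-mesenchymal transition, at 62.7, 49.6 and 58.7 RPKM at Stage 1 and 94.9, 99.6 and 101 at Stage 2. Both were higher in all Stage 2 libraries, with log2 fold changes of 0.79 (SE 0.07, adjusted p = 6.17e-06) and 0.78 (SE 0.20, adjusted p = 0.00684). TCF4, a class I bHLH factor, rose from 27.6 ± 4.51 to 48.1 ± 1.49 RPKM. TEAD4, a DNA-binding partner of YAP, fell from 17.3 ± 0.248 to 7.55 ± 1.88 RPKM, the cardiac T-box factor TBX20 from 21.4 ± 1.84 to 12.1 ± 1.37 RPKM, RUNX1 from 62.1 ± 2.09 to 37.4 ± 2.54 RPKM and the Notch target HEY2 from 137 ± 5.36 to 86.5 ± 2.99 RPKM. Of 32 homeobox factors tested, 5 were higher (15.6%) and 2 lower (6.25%), against 16.3% and 24.4% over all tested genes. In all 21.9% of this list was called, against 40.7% of all tested genes. The higher count was 8 with quantile normalization. The lower count was 1 with a minimum RPKM of 5, 4 with the 2 groups alone or limma-voom, and 5 with library quality weights. PKNOX2, a TALE-class factor, rose from 6.82 ± 0.978 to 17.9 ± 3.57 RPKM, while PRRX2, the most abundant homeobox factor, was at 394 ± 5.22 to 389 ± 36.8 RPKM and was not called.

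Of 47 immediate early and growth-linked factors in the AP-1, EGR, KLF and NR4A list, 18 were lower, with a median log2 fold change of -0.11. MYC was measured at 48.2, 55.5 and 52.8 RPKM at Stage 1 and 22.2, 19.8 and 16 at Stage 2, and KLF6, a zinc finger factor induced by injury, at 167, 187 and 177 RPKM at Stage 1 and 72.9, 85.6 and 79.3 at Stage 2. The stages did not overlap for either gene, with log2 fold changes of -1.39 (SE 0.13, adjusted p = 9.74e-06) and -1.15 (SE 0.09, adjusted p = 2.18e-06). KLF5 fell from 6.31 ± 0.558 to 1.68 ± 0.339 RPKM and the small MAF protein MAFF from 45.9 ± 3.58 to 23 ± 3.03 RPKM. The rises were KLF9, a glucocorticoid- and thyroid hormone-responsive factor, from 11.8 ± 1.06 to 22.9 ± 2.13 RPKM, the MYC antagonist MXI1 from 8.33 ± 0.264 to 13.5 ± 1.76 RPKM, FOS from 7 ± 1.29 to 10.4 ± 0.324 RPKM and JUN, at 35.6 ± 1.67 to 43.2 ± 3.25 RPKM, whose call was lost without Stage 1 replicate 1 or 3 or Stage 2 replicate 2 (adjusted p = 0.0606 to 0.0808, the lowest over the alternatives being 0.000833). The number called higher was 4, and it was 8 with median-ratio rescaling, 7 with quantile normalization and 7 without Stage 2 replicate 1. In the list of E2F, MYB and cell-cycle exit factors 4 were higher (15.4%) and 9 lower (34.6%) of 26. Over all tested genes the shares were 16.3% and 24.4%. Regulators of cell-cycle genes fell, MYBL2 from 62.3 ± 1.72 to 23.1 ± 1.35 RPKM, E2F8 from 8.3 ± 0.542 to 2.76 ± 0.189 RPKM, E2F1 from 20.7 ± 1.52 to 9.97 ± 0.702 RPKM and FOXM1 from 9.88 ± 0.238 to 3.94 ± 0.371 RPKM, and the antiproliferative BTG2 and TOB1 rose from 27.6 ± 0.986 to 42.8 ± 0.955 RPKM and from 56.6 ± 2.68 to 79.98 ± 2.59 RPKM. Forkhead factors had 1 higher and 5 lower of 13, and the lower count was 3 with median-ratio rescaling, with quantile normalization, or without any 1 of Stage 1 replicates 1 and 2 and Stage 2 replicates 2 and 3.

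In the C/EBP, NF-kB, STAT and IRF list 5 were higher (14.7%) and 9 lower (26.5%) of 34. These shares were near those over all tested genes (16.3% and 24.4%). The higher count was 3 without Stage 2 replicate 1 and also without Stage 1 replicate 1, Stage 2 replicate 2 or Stage 2 replicate 3. CEBPB was at 247, 201 and 202 RPKM at Stage 1 and 128, 114 and 97.3 at Stage 2 and CEBPD at 322, 305 and 279 RPKM at Stage 1 and 574, 533 and 543 at Stage 2. These related factors of the inflammatory response moved in opposite directions without overlap, with log2 fold changes of -0.94 (SE 0.12, adjusted p = 6.97e-05) and 0.86 (SE 0.07, adjusted p = 4.15e-06). ATF4, the effector of the integrated stress response, fell from 812 ± 9.19 to 537 ± 31.4 RPKM, and its target TRIB3, a pseudokinase, from 30.9 ± 1.31 to 17.4 ± 0.66 RPKM.

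The nuclear receptor list, which also holds the corepressor NCOR1 among its lower members, had 6 higher (22.2%) and 3 lower (11.1%) of 27. The lower count was between 0 (without Stage 1 replicate 2) and 1 when Stage 1 replicate 1, Stage 2 replicate 1 or Stage 2 replicate 2 was left out. Both thyroid hormone receptors were higher, THRB from 2.58 ± 0.102 to 5.58 ± 0.577 RPKM and THRA from 17.6 ± 1.23 to 25.5 ± 1.35 RPKM, beside the fall of DIO2 given above. The glucocorticoid receptor NR3C1 rose from 11.2 ± 0.686 to 15.8 ± 1.5 RPKM. Among 19 clock factors, 3 were higher (15.8%) and 5 lower (26.3%), shares near those over all tested genes (16.3% and 24.4%). DBP, a PAR-bZIP output factor of the clock, was at 5.53, 4.38 and 4.14 RPKM at Stage 1 and 12.7, 14.3 and 11.5 at Stage 2. It was higher in all Stage 2 libraries, with a log2 fold change of 1.29 (SE 0.12, adjusted p = 7.75e-06). NR1D1 (REV-ERB alpha), a repressor of the clock, rose from 14.2 ± 2.02 to 21.9 ± 3.44 RPKM, and NPAS2, a partner of BMAL1, fell from 108 ± 0.825 to 65.2 ± 3.14 RPKM. Not given in the sources used here is the hour at which each culture was lysed.

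Solute carriers had 40 higher (22.7%) and 36 lower (20.5%) of 176 tested, with a median log2 fold change of 0.00. Over all tested genes the shares were 16.3% and 24.4%, and 43.2% of the list was called against 40.7%. SLC12A2, the sodium-potassium-chloride cotransporter NKCC1, was at 43.8, 44 and 47.1 RPKM at Stage 1 and 14.6, 17.2 and 18.3 at Stage 2. It was lower in every Stage 2 library, with a log2 fold change of -1.38 (SE 0.14, adjusted p = 1.87e-05). The vitamin carriers SLC19A2 for thiamine and SLC5A6 for biotin and pantothenate fell from 5.16 ± 0.412 to 2.17 ± 0.271 RPKM and from 15.5 ± 0.798 to 7.49 ± 0.616 RPKM, and SLC6A17, a vesicular transporter of neutral amino acids, from 63.5 ± 3.58 to 32.7 ± 6.3 RPKM. The glutamate transporter SLC1A3 was at 6.43, 4.62 and 5.88 RPKM at Stage 1 and 14.9, 14.9 and 14.7 at Stage 2. It was higher in all Stage 2 libraries, with a log2 fold change of 1.26 (SE 0.26, adjusted p = 0.00195). A second glutamate transporter, SLC1A1, rose from 3.46 ± 0.435 to 8.69 ± 0.621 RPKM, and the nucleoside transporter SLC29A1 from 11 ± 1.13 to 26.5 ± 0.712 RPKM.

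**Figure D5:**
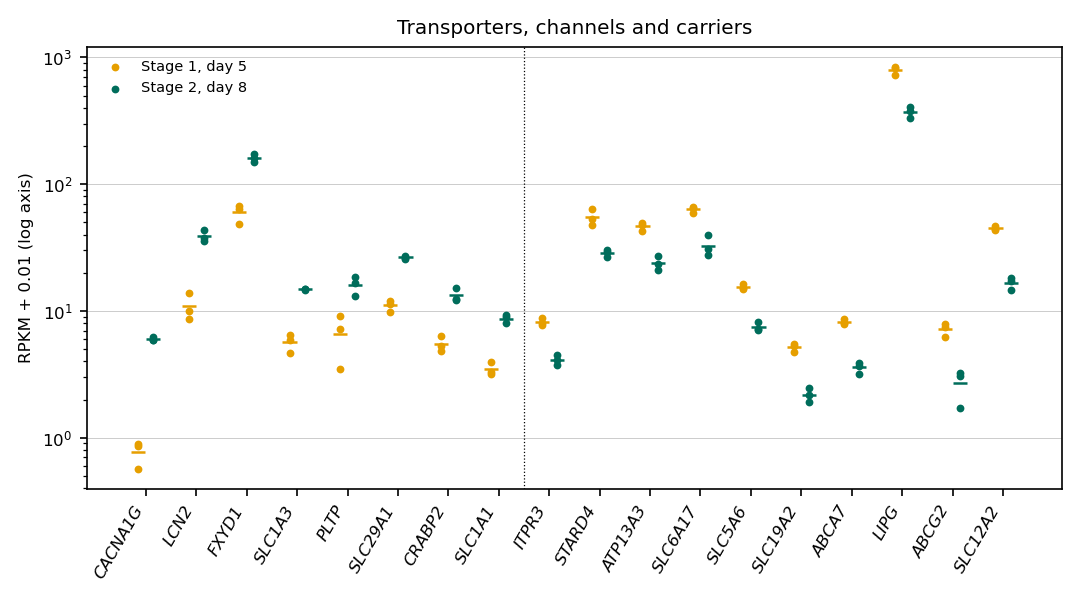
RPKM of solute carriers, channels, pumps and lipid carriers in each of the 3 Stage 1 libraries (orange) and 3 Stage 2 libraries (green) on a log axis, with 0.01 added for display and a short line at each mean; genes higher at Stage 2 are left of the dotted line and genes lower right of it. CACNA1G shows the widest gap (0.762 to 5.97 RPKM on average) and LIPG is the most abundant gene drawn (797 to 373 RPKM).

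Genes of the ATP-binding cassette family had 3 higher (12.5%) and 8 lower (33.3%) of 24, against 16.3% and 24.4% over all tested genes. These counts include ABCF3 (higher) and ABCF1 (lower), which are not transporters and whose calls were lost under 7 and 8 alternatives. The lower count was 5 with median-ratio rescaling, 5 without Stage 1 replicate 3, Stage 2 replicate 1 or Stage 2 replicate 2, and 4 without Stage 1 replicate 2. The higher count was 1 without Stage 1 replicate 1 or 2 or Stage 2 replicate 3. ABCG2, a drug and urate exporter, was at 7.82, 7.46 and 6.24 RPKM at Stage 1 and 3.25, 1.72 and 3.04 at Stage 2. The stages did not overlap, with a log2 fold change of -1.18 (SE 0.20, adjusted p = 0.000593). ABCA7, a lipid transporter, fell from 8.16 ± 0.456 to 3.58 ± 0.342 RPKM. Among ATPase pumps and their subunits, 7 were higher (31.8%) and 5 lower (22.7%) of 22. FXYD1, phospholemman, a regulator of the sodium pump, was at 63.7, 48.5 and 67.2 RPKM at Stage 1 and 174, 160.5 and 149 at Stage 2. It was higher in all Stage 2 libraries, with a log2 fold change of 1.43 (SE 0.14, adjusted p = 1.41e-05). Its relative FXYD6 rose from 212 ± 18.7 to 393 ± 38.1 RPKM and the pump's beta subunit ATP1B3 from 338 ± 16.2 to 502 ± 83 RPKM. ATP2B1, the plasma membrane calcium pump, fell from 30.3 ± 2.3 to 18.8 ± 1.79 RPKM and ATP2A2, the SERCA2 pump of the endoplasmic reticulum, from 114 ± 5.17 to 89.8 ± 6.95 RPKM. The lysosomal proton pump had 3 subunit genes higher (20%) and 5 lower (33.3%) of 15. These counts fell to 1 higher without Stage 1 replicate 1 or 2 or Stage 2 replicate 2 or 3. They fell to 2 lower with median-ratio rescaling and 3 lower without Stage 1 replicate 1 or 3 or Stage 2 replicate 1.

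Of 89 ion channel genes tested, 21 were higher (23.6%) and 13 lower (14.6%), against 16.3% and 24.4% over all tested genes. In all 38.2% of them were called, near the 40.7% of all tested genes. CACNA1G, a T-type calcium channel, was at 0.881, 0.844 and 0.561 RPKM at Stage 1 and 6.18, 5.88 and 5.85 at Stage 2. It was below 1 RPKM in all Stage 1 libraries and above 5 in all of Stage 2, with a log2 fold change of 1.99 (SE 0.16, adjusted p = 3.15e-06). TRPM4, a calcium-activated cation channel, rose from 6.6 ± 1.58 to 12.7 ± 0.886 RPKM. GJA1, connexin 43 and the most abundant channel gene of the list, rose from 548 ± 41.1 to 800.0 ± 47.4 RPKM, whereas connexin 45, GJC1, fell from 36.4 ± 1.43 to 22.6 ± 0.686 RPKM and the pannexin PANX1 from 5.69 ± 0.522 to 2.78 ± 0.112 RPKM. ITPR3, the inositol trisphosphate receptor that releases stored calcium, fell from 8.19 ± 0.576 to 4.09 ± 0.349 RPKM.

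Lipid binding and transfer proteins were evenly divided, with 9 higher and 9 lower of 33 (27.3% each). LCN2, a lipocalin that binds bacterial siderophores, was at 8.66, 13.9 and 10.01 RPKM at Stage 1 and 37.5, 43.9 and 35.6 at Stage 2. LIPG, endothelial lipase, which hydrolyses HDL phospholipids, was at 731, 821 and 839 RPKM at Stage 1 and 409, 379 and 330.5 at Stage 2. The first was higher and the second lower in all Stage 2 libraries, with log2 fold changes of 1.77 (SE 0.19, adjusted p = 1.86e-05) and -1.10 (SE 0.15, adjusted p = 0.000122). PLTP, the phospholipid transfer protein, rose from 6.58 ± 2.86 to 16 ± 2.73 RPKM, the retinoic acid-binding CRABP2 from 5.43 ± 0.778 to 13.3 ± 1.74 RPKM and the fatty acid-binding FABP3 from 340.0 ± 51.3 to 719 ± 25.6 RPKM. STARD4, a cholesterol carrier, fell from 54.9 ± 8.47 to 28.7 ± 1.68 RPKM. Of 23 cholesterol synthesis genes 4 were higher (17.4%) and 6 lower (26.1%), shares near those over all tested genes (16.3% and 24.4%): HMGCS1, an early enzyme of the pathway, rose from 164 ± 9.72 to 251 ± 24.9 RPKM and INSIG1, a sterol-sensing regulator of it, fell from 167 ± 6.63 to 118 ± 8.27 RPKM.

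Genes of glucose use were divided, with 6 higher (25%) and 7 lower (29.2%) of 24, against 16.3% and 24.4% over all tested genes. HK2, the inducible hexokinase, was at 58.8, 56.4 and 60.6 RPKM at Stage 1 and 24.7, 15.3 and 14 at Stage 2. All Stage 2 libraries were below all Stage 1 libraries, with a log2 fold change of -1.69 (SE 0.21, adjusted p = 6.96e-05). PFKM, the muscle-type phosphofructokinase, rose from 17.2 ± 1.01 to 35.9 ± 1.36 RPKM while the liver-type PFKL fell from 154 ± 9.33 to 107 ± 11.3 RPKM. PDK2, a kinase that restrains pyruvate dehydrogenase, rose from 6.39 ± 0.488 to 15.9 ± 0.184 RPKM, and GAPDH was at 5187 ± 109.7 to 5428 ± 577 RPKM and was not called. Of the 4 alpha-arrestins tested, 3 were higher and 1 lower. ARRDC4, which like TXNIP is a target of the glucose-sensing factor MLXIP, rose from 4.07 ± 0.562 to 14.2 ± 2.61 RPKM. ARRDC3 was called higher at 13.7 ± 0.983 to 19.7 ± 3.61 RPKM, but not without Stage 1 replicate 2 or 3 or Stage 2 replicate 3 (adjusted p = 0.0523 to 0.0834, the lowest over the alternatives being 0.000644), and ARRDC2 fell from 41.2 ± 1.63 to 34.1 ± 1.55 RPKM.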

How the data were processed

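Polyadenylated RNA of 12 libraries was sequenced with the Illumina TruSeq Stranded mRNA kit, per the labels' protocols. The submitters' processing notes name TopHat2 2.1.0 for alignment. Not given in the sources used here are the counter, its use of strand and the genome build. Deposited by the authors were RPKM values of 22861 genes and 189618 exons. Overlapping and antisense genes, and near-identical copies, may therefore share reads. Symbols came from the gene table (15203 genes), a table of IDs and symbols (1715) and Entrez numbers (627); where a symbol had several IDs, lists used the ID with the higher mean RPKM.

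The 3 Stage 1 and 3 Stage 2 libraries were compared on log2(RPKM + 1) with limma 3.58.1 (R 4.3.3). The fit held all 12 libraries, with a coefficient per group and an expression trend, so Stage 3 libraries add to the estimate of the spread. Genes with RPKM of at least 1 in at least 3 libraries were tested, and Benjamini-Hochberg adjusted p under 0.05 was the threshold. Whole reads (100% of values within 0.001 of a read) were recovered from the RPKM, exon length and library total, for depth and for an alternative limma-voom fit, which called 5393 genes. The fit was also run on simulated counts with the same spread for all genes and few changed genes. That setting is simpler than these data, so it does not bear on the calls above.

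The comparison and the 46 gene lists were chosen with earlier results of these data known. Genes are named if called, without overlap between stages and with a mean RPKM of at least 5 in the higher stage, as the 12 largest rises and falls and up to 4 each way in every list, together with the most abundant member of each list. Some are left out for length and some are not reported here, and a gene named outside this rule is said to be so. A list is described by its counts and median, with no set test. In all, 18 alternatives were run: pseudocounts, filters, rescaling, quantile normalization, no trend, the 2 groups alone, quality weights, a replicate block, limma-voom and leaving out each library.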

Additional observations from a re-analysis of the deposited data

How the results depend on the processing

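The number of called genes stayed within 1.5 times of 5308 under each of the 18 alternatives, from 4332 (without Stage 1 replicate 2) to 7273 (library quality weights); leaving out 1 library gave 4332 to 5136. The share of called genes that were higher was 40.1%, and it was 49.0% after median-ratio rescaling, 49.1% with quantile normalization and 34.9% with limma-voom. Replicate numbers did not pair the libraries (correlations of same-numbered deviations 0.014, -0.045 and 0.048), and the fit with a replicate block called 5133 genes, 2055 higher and 3078 lower. Of 278 named and called genes, 246 were called under every alternative that tested them, 32 lost the call under at least 1 and none reversed. With quality weights the counts called higher rose from 8 to 13 for integrins and matrix receptors, 4 to 10 for AP-1, EGR, KLF and NR4A factors, 4 to 8 for E2F, MYB and exit factors and 6 to 10 for glycolysis; those called lower rose from 5 to 8 for chemokines and cytokines, 9 to 14 for C/EBP, NF-kB, STAT and IRF factors 4 to 7 for guidance and Notch receptors (also with limma-voom), 2 to 5 for homeobox factors, and 2 to 4 for guidance cues and for TGF-beta antagonists. A minimum RPKM of 5 left 3 of the 5 members called higher in the TGF-beta ligand list. Small lists and genes with few reads are limited by depth and by 3 libraries a stage. Examples are TMEM100 and SAA2 at Stage 1, and SNORD93 and SNORD30 at both stages.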

Other observations

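Genes of small nucleolar RNAs, which guide the chemical modification of ribosomal RNA, were often called lower, an observation made after their values were seen. Of 181 tested, 95 (52.5%) were called lower and 1 higher, with a median log2 fold change of -0.91, against 24.4% lower and a median of -0.05 over all tested genes. SNORD93 was measured at 11.3, 6.86 and 11.1 RPKM at Stage 1 and 0, 2.76 and 0.682 at Stage 2, and SNORD30 at 7.58, 5.8 and 4.82 RPKM at Stage 1 and 0, 0.729 and 1.44 at Stage 2. Both were lower in all Stage 2 libraries, but few reads lay behind these values. Summed over the 3 libraries of a stage they were 38 against 5 for SNORD93 and 22 against 3 for SNORD30. SNORD30 and SNORD26 lie close together on chromosome 2, and SNORD78 and SNORD24 on chromosome 9, so the counted members are not all independent. Of 76 small nuclear RNA genes 2 were called lower, with a median of -0.01, and of 91 microRNA genes 11 were called lower and 5 higher. Small nucleolar RNAs are short and mostly encoded in introns of other genes, and the kit used here selects poly(A) RNA; the part of host gene reads in these values was not tested.

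Several other genes with clear changes fall outside the naming rule and were chosen after their values were seen. Ferroportin, SLC40A1, the cellular iron exporter listed under 2 IDs, was at 206, 188 and 213 RPKM at Stage 1 and 309, 386 and 392 at Stage 2. NPY, a neuropeptide, was at 1.78, 3.66 and 2.87 RPKM at Stage 1 and 0.491, 0 and 0.182 at Stage 2, and NPPB, the natriuretic peptide BNP, was at 1.92, 1.29 and 1.8 RPKM at Stage 1 and 0, 0.152 and 0 at Stage 2. KITLG, the ligand of KIT, went from 70.9 ± 5.7 to 49.3 ± 2.98 RPKM. CAV1, the caveolar scaffold protein, went from 103 ± 3.38 to 176 ± 22.6 RPKM.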
